A study of Mus musculus with 2 samples.

Results

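IL-33 and the interleukin-1 (IL-1) family were examined in mammary tumors of female wild-type FVB mice. The 8 genes considered were the ligand genes Il33, Il1a, Il1b and Il18, the receptor antagonist Il1rn, the receptors Il1rl1 and Il1r1, and the shared receptor chain Il1rap. Il33 was chosen by its higher signal on these same arrays, so its difference between the diets is a description, and the other genes were chosen by their membership of the family. Of 12393 genes read on the arrays, 7 were members, read by 11 probe sets, each a group of short oligonucleotides that reads part of a transcript. Il1rl1, the IL-33 receptor, was not analysed here. All mice received 15 mg medroxyprogesterone acetate, a progestin, and then 4 doses of 1 mg 7,12-dimethylbenz(a)anthracene (DMBA), a carcinogen, from an age of 5 weeks. Mice of the control group were kept on standard chow, and those of the GW9662 group on the same chow with 0.1% GW9662, an irreversible antagonist of the nuclear receptor PPARγ, from 1 day after the last DMBA dose. Tumor RNA of 5 mice was pooled for each diet and hybridized to 1 Affymetrix mouse 430A 2.0 array.

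With 1 pooled array per diet there was no replicate and no test between the diets, and mice, tumors and arrays cannot be told apart as sources of a difference. The number of arrays limits the precision of every value. Both arrays had a 2% trimmed mean signal of 500.2, as arrays scaled to a common value would, so this match is no check of quality. The 33 olfactory receptor probe sets, which mammary tissue should not light up, reached at most 25.8. Where a gene had more than 1 probe set, the SD of their log2 ratios (GW9662 over control) was 0.36 over 2639 genes, a spread that holds no variation between mice. The luminal markers of mammary epithelium had high signals on both arrays, such as 9496 and 9665 for the keratin Krt8. The control array also carried fat and muscle RNA, and in pooled tissue fewer cells of a type and less RNA per cell cannot be told apart.

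IL-1 family cytokines are alarm and inflammation signals that act through paired receptor chains. IL-33 is stored in the nucleus of epithelial, endothelial and stromal cells and is released when these cells are damaged. It binds a receptor made of the Il1rl1 product and the Il1rap chain, which recruits the adaptor Myd88 and kinases of the Irak family to activate NF-κB, and it acts on mast cells, innate lymphoid cells, eosinophils and regulatory T cells. IL-1α and IL-1β act through Il1r1 and the same Il1rap chain, and Il1rn blocks that receptor without signaling.

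RefSeq annotates 2 starts for Il33 in the GRCm38.p6 assembly, and the single Il33 probe set gives 1 value for the gene, so the start in use was not analysed here. The 250 bases before each Il33 start are shown because Il33 was the member with the large difference, and those of Il1a and Il1b because they allow a comparison with family ligands that did not share it. Capitals mark every match to the motifs searched on both strands.
Il33, upstream start (chr19:29924863-29925112, plus strand): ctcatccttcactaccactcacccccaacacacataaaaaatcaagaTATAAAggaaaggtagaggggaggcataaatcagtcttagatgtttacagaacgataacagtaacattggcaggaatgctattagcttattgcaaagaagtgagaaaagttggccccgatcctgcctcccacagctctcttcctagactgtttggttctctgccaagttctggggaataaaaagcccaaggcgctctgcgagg
Il33, downstream start (chr19:29945540-29945789, plus strand): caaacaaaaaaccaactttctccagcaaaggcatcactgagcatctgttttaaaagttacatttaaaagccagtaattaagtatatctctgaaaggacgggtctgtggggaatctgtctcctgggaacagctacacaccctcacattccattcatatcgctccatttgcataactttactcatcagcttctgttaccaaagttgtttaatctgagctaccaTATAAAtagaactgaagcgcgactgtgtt
Il1a (chr2:129309973-129310222, minus strand): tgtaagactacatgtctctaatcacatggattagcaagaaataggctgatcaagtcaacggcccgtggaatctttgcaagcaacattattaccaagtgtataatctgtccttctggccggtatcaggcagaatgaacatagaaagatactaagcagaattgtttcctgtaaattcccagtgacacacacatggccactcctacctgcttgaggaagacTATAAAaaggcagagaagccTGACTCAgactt
Il1b (chr2:129371140-129371389, minus strand): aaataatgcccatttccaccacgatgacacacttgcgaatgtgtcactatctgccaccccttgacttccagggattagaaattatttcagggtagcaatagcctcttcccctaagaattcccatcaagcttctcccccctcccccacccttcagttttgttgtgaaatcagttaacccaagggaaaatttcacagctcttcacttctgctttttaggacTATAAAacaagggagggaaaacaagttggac

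The windows of Il33 held no copy of AGGTCA, the core bound by PPARs and many other nuclear receptors. This core was present in 4607 of the 32851 RefSeq windows of the same length, and 2 cores separated by any 1 base, the form bound by PPARγ with RXR, in 0.0335%. Neither Il33 window matched GGGANTTTCC, a form of the NF-κB site held by 0.356% of windows, TGANTCA, the AP-1 site held by 6.75%, or TTCNNNGAA, the STAT site held by 7.02%. Both held TATAAA, which was found in 12.4% of windows on either strand and which lies near the start in genes with a TATA box. At the downstream Il33 start it began 29 bases before the start, as it did at 32 bases for Il1a and 31 bases for Il1b, whereas at the upstream Il33 start it began 203 bases before. A TATAAA beginning 25 to 35 bases before the start, a distance chosen after these matches were seen, was present in 1.75% of all windows. Among the 13 windows of the 8 members, the nuclear receptor core was present in 1 window of Il1rl1 and 1 of Il1rn, and the AP-1 site in 1 of Il1a and 1 of Il1rn. Some of these windows overlap. The matches are letters in a window, and none was tested as a binding site.

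Il33 was the only member that differed by a large factor between the diets. Its signal was 920.4 in control tumors and 3629.8 in GW9662 tumors. This was a 3.94-fold higher signal with GW9662, a log2 ratio of 1.98. Both signals were well above the study's signal minimum of 300, so the fold did not rest on a dim value. The file holds 1 probe set for Il33, so no other part of the transcript was read.

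The other ligand genes did not share this difference. Il18, a cytokine that promotes interferon-γ production, gave a signal of 183 with control chow and 228.5 with GW9662, 1.25-fold higher (in what follows the control value stands first). Il1b, made mainly by myeloid cells, had signals of 135.7 and 106.4, 1.28-fold lower. Il1a, which like IL-33 is kept in the cell until damage, had signals of 18.3 and 10.2, no brighter than the olfactory receptors. Il18 and Il1b thus lay in opposite directions, each by less than the SD between probe sets of a gene in the deposited values, and no direction was read for Il1a. The antagonist Il1rn was read by 3 probe sets, all below 100 on both arrays, with signals of 45.8 and 42.9, 49.8 and 31, and 4.3 and 8.9. They did not give a common direction.

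**Figure D1:**
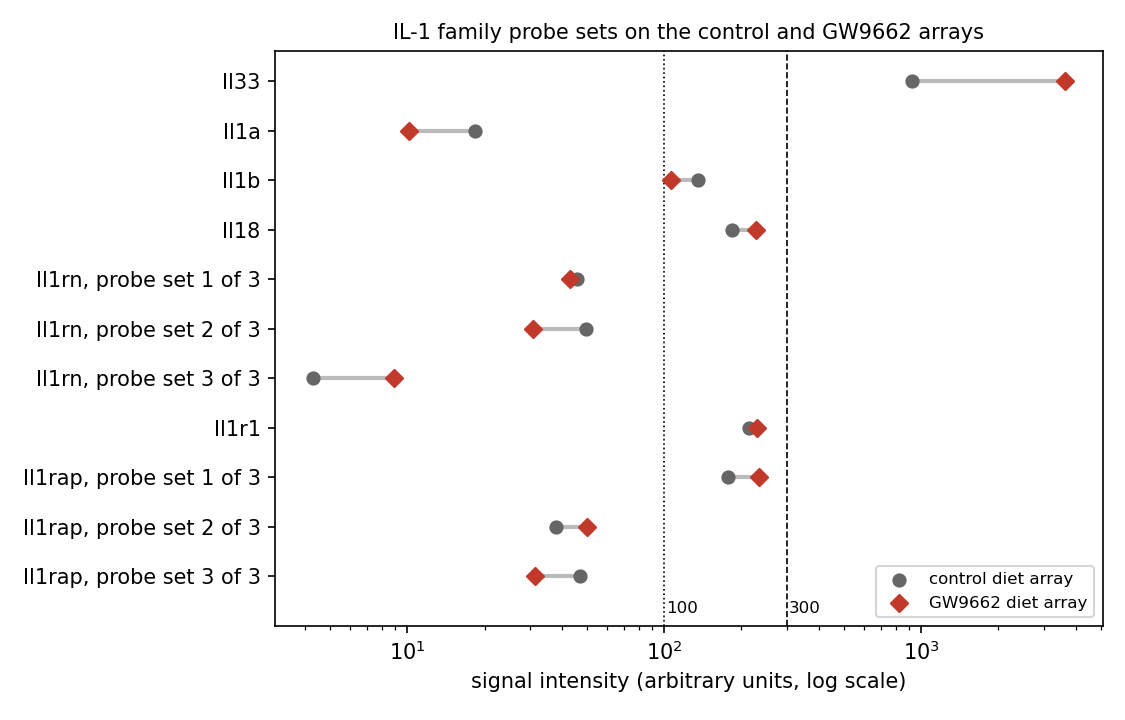
Signal of each of the 11 probe sets of the IL-1 family genes on the x axis (arbitrary units, log scale), with the control diet array as gray circles and the GW9662 diet array as red diamonds. The dotted line marks a signal of 100 and the dashed line 300, which Il33 alone passed, from 920.4 to 3629.8.

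The receptor chains were close to level at their brightest probe sets. Il1r1, the signaling receptor of IL-1α and IL-1β, went from 213.2 in control to 230.7 in GW9662 tumors, 1.08-fold higher. Il1rap, which pairs with both Il1r1 and the IL-33 receptor, was 1.33-fold higher at the probe set with most signal (176.9 and 234.7). Its other probe sets were below 100 on both arrays and lay in opposite directions (37.9 and 49.9, and 47.2 and 31.5). The log2 ratio of Il1rap was 0.41, slightly above the SD of 0.36 between probe sets, and it was 0.08 when the median over its 3 probe sets was used.

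The study's rule asks for a 3-fold difference and for a signal of 300 or more with at least 1 diet. By it, 0 of the 6 other members were higher and 0 were lower. Applied here at 1 probe set per gene, the rule took 0.105% of all genes as higher and 1.31% as lower. At 2-fold, 0 of 6 were higher and 0 lower, beside 0.500% and 2.28% of all genes. The 6 all stayed below 300 with both diets, the highest signal being 234.7, so these counts could not have been above 0 and the signals themselves are the better description. With no signal minimum, 0 of the 6 still differed by 2-fold at the probe set read. Their log2 ratios ran from -0.84 to 0.41 with a median of 0.01, which became -0.02 when the arrays were centred on their median ratio and 0.17 when they were centred on their hybridization controls, beside 0.00, -0.03 and 0.17 over all genes. Among the 4 with a mean signal of at least 100, Il18, Il1r1 and Il1rap were higher and Il1b was lower, with a median of 0.22. Of the 8009 genes at that signal, 14.8% had a higher ratio than Il1rap, 21.1% than Il18, 41.3% than Il1r1 and 81.1% than Il1b, compared with 0.0999% for Il33.

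**Figure D2:**
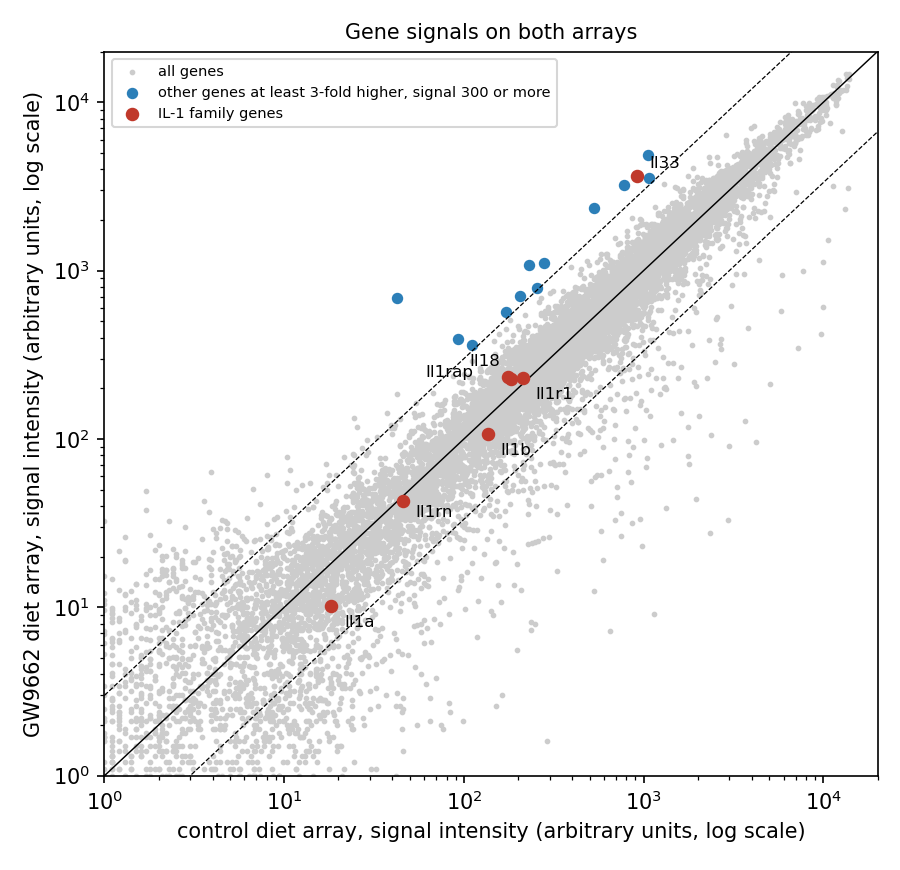
Each point is a gene whose signal was 1 or more with both diets, with its control signal along x and its GW9662 signal along y (arbitrary units, log scales). Genes with equal signals fall on the solid line and those 3-fold apart on the dashed lines, and Il33 (920.4 and 3629.8) lies above the upper line while the other 6 IL-1 family genes lie between the lines.

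Il33 stood among a small group of genes with a similar difference. Read at the brightest probe set of each, 6053 genes reached a signal of 300 with either diet. Of these, 13 were at least 3-fold higher in GW9662 tumors, and Il33 was the 8th of them by log2 ratio. The paper's own list of changed genes is longer, has RBM39 as higher, and was not compared here. The log2 ratios closest to that of Il33 were 1.99 for Nptx1, a neuronal pentraxin (280.6 and 1112.9), 2.05 for Crabp1, a retinoic acid binding protein (775.9 and 3207.8), and 2.08 for Bex2, of a family expressed in brain (93 and 393.1, at least 3.93-fold). The other genes with higher ratios were Rasgrf1, which activates Ras (42.4 and 689.3, at least 6.89-fold), Slc5a8, a monocarboxylate transporter (229.8 and 1080.8), Pcp4, a calmodulin-binding peptide (1061.2 and 4868.7), and Wfdc12, of the whey acidic protein family (526.3 and 2350.7). Below Il33 were Cdc7, a replication kinase (204.6 and 701.8), Bex1 (1069 and 3543.8), Bex4, the orphan receptor gene Esrrb and the epithelial linker protein gene Eppk1 (254.9 and 793.1). None of the other 12 is a cytokine gene. Only 5 of the 13, among them Il33, were past 300 with both diets. With 2 arrays, likeness means only a similar ratio.

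Other IL-1 family genes outside the 8 were mostly dim. Of 12 with a probe set, 10 had a mean signal below 100, including Il36a, Il36b, Il36g and Il36rn, epithelial ligands of the IL-36 branch that the annotation lists as Il1f6 (15.5 and 20), Il1f8 (2.1 and 19.1), Il1f9 (8.3 and 18.3) and Il1f5 (23.6 and 23.8). These were no brighter than the olfactory receptors. The decoy receptor Il1r2 had signals of 72 and 26.3 and the IL-18 binding protein Il18bp 69 and 41.3, both below 100. The measured genes were Sigirr, an inhibitory receptor (252.9 and 235.1, a small difference that turned when the arrays were centred on hybridization controls), and Il18r1, the ligand-binding chain of the IL-18 receptor, with signals of 169.8 and 333. Il18r1 was 1.96-fold higher, just short of 2-fold, and was 2.11-fold higher after quantile normalization and 2.20-fold higher when the arrays were centred on their hybridization controls. Its partner chain Il18rap had signals of 11.4 and 7.9, at the level of the olfactory receptor probe sets.

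Family genes lie in clusters on the chromosomes, and no gene read next to Il33 had a difference of its size. In the gene order of GRCm38.p6, the 5 genes read on either side of Il33 on chromosome 19 included 2 that reached a signal of 300, Plgrkt, a plasminogen receptor (1003.9 and 1312.9), and Ermp1, an endoplasmic reticulum metallopeptidase (1454.4 and 1747.1). None of the 10 passed the 2-fold rule in the higher direction, which 0.500% of all genes did. Those below 300 could not have passed it. The checkpoint ligand genes Cd274 (45.1 and 38.6) and Pdcd1lg2 (9.7 and 12.1), also near Il33, were below 100 on both arrays. On chromosome 1 the receptor genes Il1r2, Il1r1, Il1rl2, Il18r1 and Il18rap are adjacent among the genes read, and Il18r1 alone among them reached 300.

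**Figure D3:**
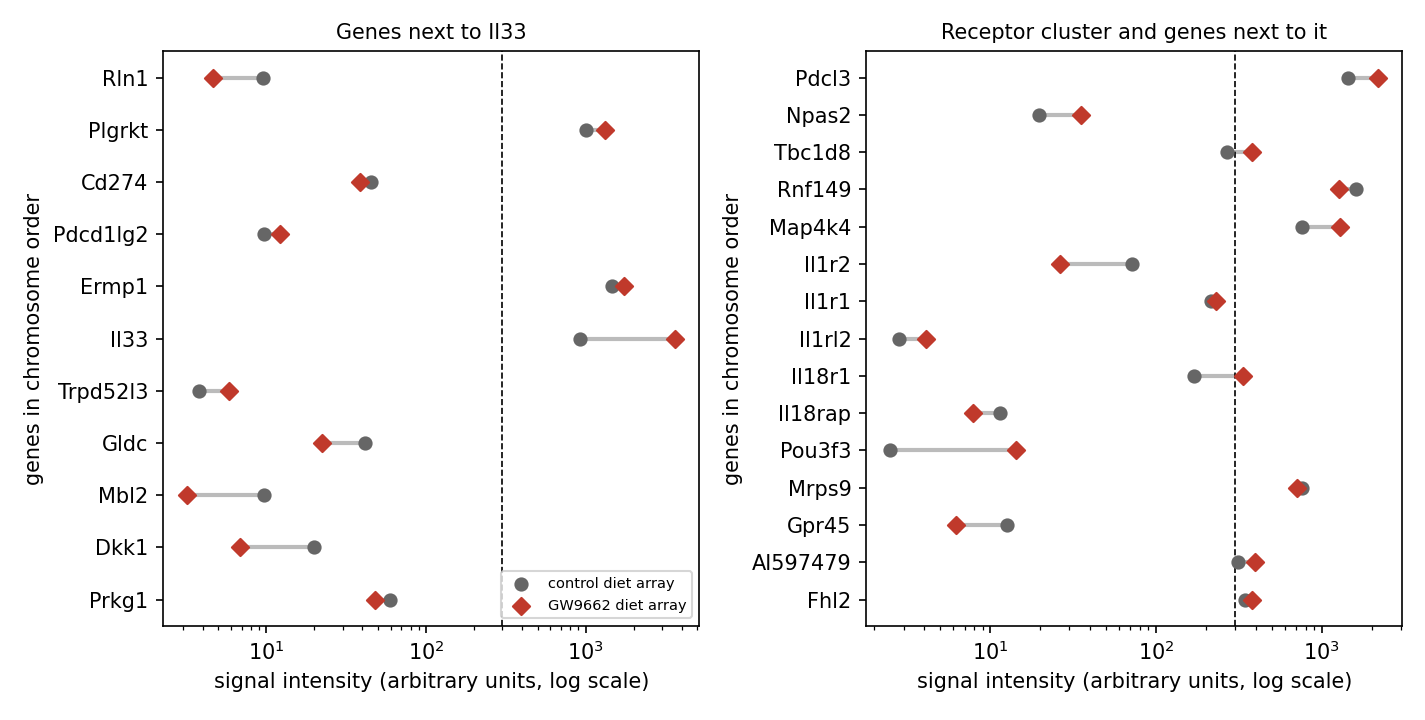
Signals of genes in chromosome order next to Il33 (left) and in the receptor cluster with the genes next to it (right), on the x axis (arbitrary units, log scale), with the control diet array as gray circles and the GW9662 diet array as red diamonds. The dashed line marks a signal of 300, and the line for Il33 is longer than those of Plgrkt and Ermp1, the other genes of the left panel past it.

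Genes that act below the IL-1 receptors differed little between the diets when read at the brightest probe set of each. Of 24 with a probe set, 23 had a mean signal of at least 100, with 13 higher, 10 lower and 0 at least 2-fold different. Of the 8009 genes at that signal, 4234 were higher and 3774 lower, and 62 and 283 of them passed the 2-fold rule. The 23 had a median log2 ratio of 0.08, where the 8009 had a median of 0.03. The adaptor Myd88 gave 616.7 and 615.5, the kinase Irak1 had 1316 and 1356, and Tab2, which links ubiquitin chains to the kinase Map3k7, had 2337 and 2587. Other bright probe sets of these genes were lower, at 954.2 and 546.9 for Tab2, 1.74-fold, and at 634.7 and 420.7 for 1 of the 4 of Irak1, 1.51-fold. The NF-κB inhibitor gene Nfkbia, itself induced by NF-κB, had 7742 and 6913. The largest differences were in Mapk8, the kinase JNK1 (189.4 and 323.1), Ikbkg, a scaffold of the IκB kinase (343.5 and 493.4), Peli2, a Pellino ubiquitin ligase (138 and 81.4), and Map3k7, the kinase TAK1 (253 and 329.9). The probe sets of Mapk8 lay in 1 direction, but Map3k7 was lower at its next brightest (188.3 and 125.4), as was Ikbkg (205.6 and 186.3). The 18 probe sets for spiked hybridization controls had a median of -0.16 on the same scale, and centring on them raised the median over all genes from 0.00 to 0.17. The direction of small ratios therefore depends on the scaling, and on that scale 19 of the 23 were higher.

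The measured proteases and inflammasome genes that cut IL-1 family ligands differed by less than 2-fold between the diets, as most genes did. Of 17 with a probe set, 7 were measured, with 1 higher and 6 lower and a median log2 ratio of -0.23. Of the 8009 genes measured, 3774 were lower. Of the 7, 0 passed the 2-fold rule, which 62 of the 8009 passed as higher and 283 as lower. Casp1, which matures IL-1β and IL-18, had signals of 561.8 and 484.1. Ctss, a lysosomal cathepsin and the brightest of the list, had 3592 and 3061, and Pycard, the inflammasome adaptor, had 1183 and 1473. The largest ratios were those of the calpain gene Capn1 (274.2 and 181.6), 1.51-fold lower, and of the caspase gene Casp4 (137 and 93.8), at least 1.37-fold lower. The related calpain gene Capn2 had 1473 and 1171, and the sensor Nlrp3 had 45.4 and 46.4. The mast cell and neutrophil proteases that cut IL-33 to more active forms were dim, such as the chymase gene Cma1 (111 and 38.8) and the elastase gene Elane (21.4 and 3.5). Centred on hybridization controls, 2 of the 7 were higher and the median was -0.07.

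Genes that NF-κB induces after IL-1 or IL-33 signaling were not higher as a group. All 26 had a probe set and 13 were measured, with 5 higher, 8 lower and a median log2 ratio of -0.10, or 8 higher, 5 lower and 0.06 when centred on hybridization controls. The acute phase gene Lcn2 had signals of 6587 and 7501, and the mitochondrial dismutase Sod2 had 2853 and 2508. The adhesion molecules Icam1 (584.2 and 544.7) and Vcam1 (917.5 and 966.3) were close to level at their brightest probe sets. A dimmer probe set of Vcam1 was 1.51-fold lower (203.3 and 134.2). The single gene of the list past 2-fold was the matrix metalloproteinase gene Mmp3 (711.3 and 341.7), 2.08-fold lower. It missed 2-fold after quantile normalization (1.99-fold) and when centred on hybridization controls (1.86-fold). Of the 8009 genes measured, 3774 were lower, 283 of them past 2-fold. Mmp13 (275.5 and 146.6), the chemokine gene Ccl20 (143.7 and 82.2) and Birc3, an inhibitor of apoptosis (889 and 575.7), were also lower. Il6 (20.8 and 16.8) and Cxcl2 (26.9 and 17.8) were near the olfactory receptor range.

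Genes tied to the type 2 response that IL-33 can start were lower at 4 of the 5 measured, or at 3 of 5 when the arrays were centred on hybridization controls, beside 3774 lower of the 8009 genes measured. Retnla, a secreted protein of alternatively activated macrophages, had signals of 4665 and 2249, 2.07-fold lower, and Arg1, the arginase of the same macrophages, had 4520 and 2222, 2.03-fold lower. These 2 of the 5 measured genes passed 2-fold, as 283 of the 8009 measured did in that direction. They were 1.85-fold and 1.82-fold lower when centred on hybridization controls. Fat RNA was also lower on the GW9662 array, and its part in these differences was not tested. The eosinophil chemokine gene Ccl11 was 1.90-fold lower (694.5 and 365.7). Rora, a receptor of innate lymphoid cells, had 179.7 and 166.1, and Gata3, which is also a luminal epithelial factor, had 1662 and 1919. The median log2 ratio of the 5 was -0.93. The cytokine genes Il4 (5.6 and 7.3), Il5 (17.9 and 3.8) and Il13 (3.3 and 2.7) were within the olfactory receptor range. Of the other epithelial alarmins, Tslp (28.9 and 43.4) and Il25 (1.9 and 1.9) were below 100 on both arrays. The neutrophil alarmin genes S100a8 (300.7 and 234) and S100a9 (162.3 and 174.4) lay in opposite directions, and Anxa1 had 7182 and 6171. The 3 measured alarmin genes had a median log2 ratio of -0.22.

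**Figure D4:**
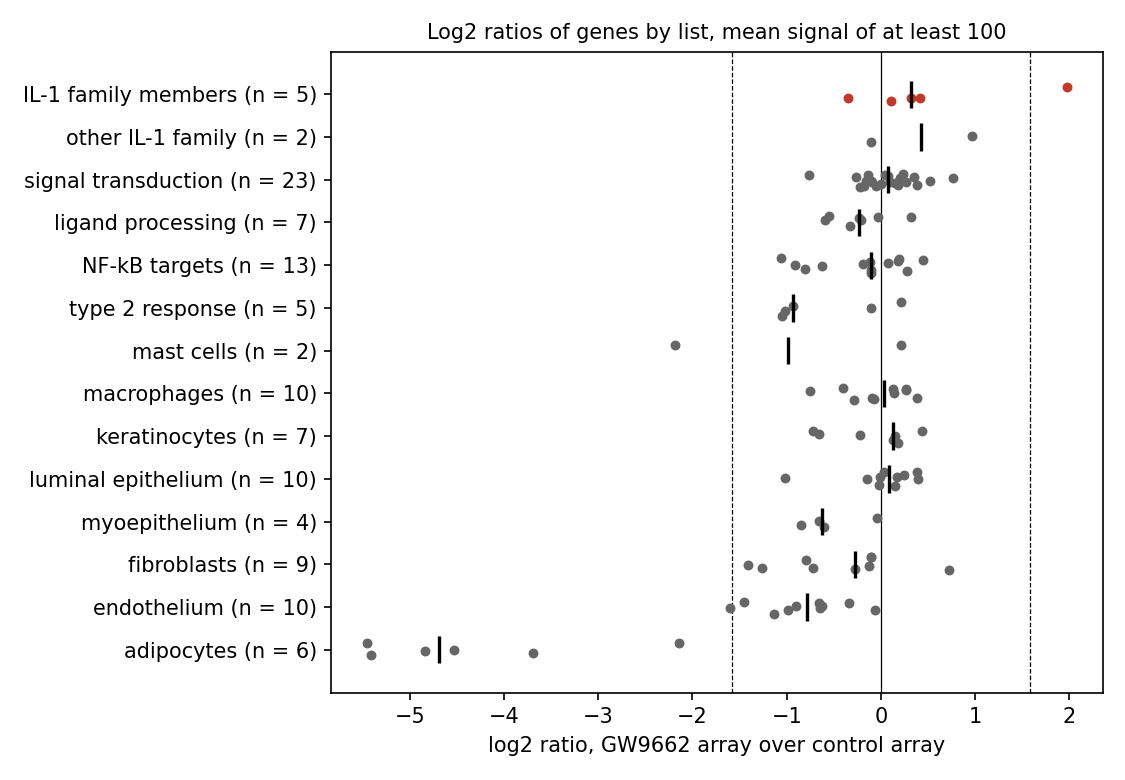
Log2 ratio of GW9662 over control for genes with a mean signal of at least 100, by list, with 1 point per gene, the black bar at the median of the list and the dashed lines at 3-fold. Il33 is the red point at 1.98, and the other red points, from -0.35 to 0.41, lie among the points of the pathway lists.

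Cells that respond to IL-33 gave little signal. Among mast cell markers, the carboxypeptidase gene Cpa3 had signals of 231.8 and 50.8, at least 2.32-fold lower, and Kit, which luminal progenitors also express, had 1185 and 1375. The other 9 of 11 mast cell markers had mean signals below 100, among them the IgE receptor chains Fcer1a (14.8 and 7.5) and Ms4a2 (5 and 12.5). All 5 eosinophil markers lay within the olfactory receptor range. The regulatory T cell factor Foxp3 (2.8 and 8.4) did so too, as did 3 other markers of those cells. Both measured markers, the receptors Tnfrsf18 (373.2 and 654.7, 1.75-fold) and Tnfrsf4 (88.6 and 160.3, at least 1.6-fold), were higher with GW9662. Summed over the lists, mast cell markers had signals of 1744 and 1564, most of it from Kit. Without Kit, a choice made after the values were seen, the 10 remaining mast cell markers summed to 559 and 189. Of these only Cpa3 had a mean signal of at least 100, so no count of directions was read. The sums of regulatory T cell markers were 492 and 853, most of it from Tnfrsf18 and Tnfrsf4. Those of T cell markers were 256 and 144, and those of eosinophil markers 18 and 28. Most of these markers were too dim for a fold to be read from any 1 of them.

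Markers of cell types that can make IL-33 are given here, with those of luminal epithelium in the next paragraph. Of the 8009 genes measured, 3774 were lower as deposited. Endothelial markers were lower at 10 of 10 measured genes, or 9 of 10 when the arrays were centred on hybridization controls, with a median log2 ratio of -0.78 and a summed signal over 11 markers of 6523 and 3819. The adhesion molecule Pecam1 had 505.4 and 185.3, the junction protein Cldn5 773.8 and 255.7, the angiopoietin receptor Tek 269.4 and 123.3, the adhesion molecule Esam 1055 and 531.4, and endomucin, Emcn, 863.8 and 548.5. Fibroblast markers were lower at 8 of 9, or 5 of 9 on that other scale, with a median of -0.28 and sums of 36992 and 28049, among them decorin, Dcn (7005 and 2925), lumican, Lum (4107 and 2356), and Fap (690.7 and 259.4). The collagen gene Col1a1 was higher (677.6 and 1120), while Col3a1 had 9709 and 8005 and Col1a2 6428 and 5879. A dimmer probe set of Col1a2 was higher (2571.5 and 3059.3). Keratinocyte markers were mixed, with 4 higher and 3 lower of 7 and sums of 5121 and 4734. The basal keratins Krt5 (1256 and 793.1) and Krt14 (1022 and 619.5) were lower and Sprr1a, of the cornified envelope, was higher (662.1 and 895.9), with 1103 and 1226 for the basal factor Trp63 and 147.2 and 126.1 for Krt6a. Myoepithelial markers were lower at 4 of 4 measured genes, or 3 of 4 on that scale, with sums of 13917 and 12015. The contractile genes Cnn1 (1100 and 610.9), Myh11 (983.1 and 624.3) and Mylk (2240 and 1477) were lower, and the actin Acta2 had 9559 and 9275.

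Markers of luminal epithelium, and then of other cell types, are given next, as RNA of some of these also differed between the pools. Luminal markers had a median of 0.09 and sums of 49316 and 49649. Of 10, 6 were higher and 4 lower, beside 4234 and 3774 of the 8009 genes measured. When the arrays were centred on hybridization controls, 9 were higher and 1 lower. The alveolar factor Elf5 was the exception (4138 and 2040), 2.03-fold lower, whereas Foxa1 (3038 and 3993), Cdh1 (3158 and 4109), Cldn3 (3155 and 3749) and Krt18 (10018 and 9025) differed less. Macrophage markers had a median of 0.03 and sums of 18844 and 17711, among them the lysozyme Lyz2 (6943 and 5695), the complement gene C1qa (3142 and 3441), the scavenger receptor Cd163 (230.9 and 137.4), the mannose receptor Mrc1 (924.4 and 702.9) and Fcgr1 (93.5 and 121.6). Of the neutrophil markers, with sums of 1853 and 704, lactoferrin, Ltf, was 6.43-fold lower (1291 and 200.7) and is also made by mammary epithelium. Adipocyte markers were far lower at 6 of 6 measured genes, with sums of 30755 and 3773, such as the adipokine genes Adipoq (9668 and 417.5), Retn (3668 and 128.1) and Lep (979.8 and 23) and the lipid proteins Fabp4 (13670 and 3097) and Cidec (1950 and 44.2). Skeletal muscle markers were too, with sums of 7382 and 788, such as Acta1 (2488 and 284.8), Myl1 (1766 and 118.5), Ckm (1246 and 91.7) and Tnnt3 (550 and 60.8). The part of these cell types in the Il33 difference was not tested. No marker of the lists had a signal of 0. The 9 housekeeping genes had a median log2 ratio of -0.06, which turned to 0.10 when the arrays were centred on hybridization controls. Among them Ywhaz (4426 and 5909) and Pgk1 (5517 and 7161) were highest in ratio, Gusb (1285 and 1032) and Sdha (2466 and 2014) lowest, and Rplp0 (11706 and 9789) and B2m (10475 and 10813) brightest. The probe sets of Ywhaz and Pgk1 did not lie in 1 direction, and their next brightest were lower (5049 and 4185, and 6051 and 5524).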

How the data were processed

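Tumor RNA pooled from 5 mice per diet was hybridized by the authors to 1 Affymetrix mouse 430A 2.0 array for each diet, and raw data were generated with GeneChip Operating Software 1.1. The deposited table gives a linear signal intensity for every probe set on each array. The summary and scaling method is not given in the sources used here. They were used as deposited, and 3 control signals of 0 were read as 0.1. Of 22690 probe sets, 20380 had 1 gene in the old platform annotation, updated with RefSeq names of GRCm38.p6, 691 had several genes, 1555 had none named here and 64 were controls. Genes with several probe sets were represented by the brightest on average, and members at every probe set. A dimmer signal below 100 gave a bound on the fold, and no fold was given with both signals below 100. List members needed a mean signal of 100.

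The members and lists were chosen with earlier results of these data known. The text names all members, all genes at least 3-fold higher, and of each list up to 2 of the brightest and 4 with the largest log2 ratios. Il36 genes, neighbors on the chromosomes, low cytokine and cell type markers and some level pathway genes were added after their values were seen. No test was made, because each diet had 1 array. The count rule was tested on simulated data. Other scalings, treatments of low signals, probe set choices, signal minimums and folds were tried. Python 3.11.15, numpy 2.4.6, pandas 2.3.3, scipy 1.17.1 and matplotlib 3.10.9 were used.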

Additional observations from a re-analysis of the deposited data

How the results depend on the processing

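Il33 kept its direction and passed 3-fold under all 7 alternative settings, with log2 ratios between 1.92 and 2.14. Raising low signals to 100 and the choices between probe sets could not change its value. Il33 had 1 probe set, and both its signals were above 100, so only the remaining settings bear on its stability. The median log2 ratio of the 6 other members lay between -0.14 and 0.17, and it was below 0 when the arrays were centred on their median, when the median over probe sets was used and when the probe set with the highest control signal was read. The counts of other members at least 3-fold higher, 2-fold higher and 2-fold lower were 0 with signal minimums of 100 and none in place of 300. They were also 0 with other scalings, low-signal treatments, probe set choices and folds of 2.5 and 1.5, but these kept the minimum of 300, which none of the 6 reached as deposited, and so say nothing about stability. For the single members, 38 of 42 alternative values moved by less than the SD of 0.36 between probe sets. The 4 others were those of Il1a and Il1rn, whose signals were below 100. Many of the 42 could not have moved that far, so the count says little about stability. Centring shifted all members alike by less than the SD. Probe set choices could not change members with 1 probe set, nor could raising low signals change those above 100. No paired analysis was possible because each diet had 1 array. Low signal limits what can be said of every member other than Il33, since none reached 300.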
